A study of Mus musculus with 12 samples.

Results

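The nuclear genes for the subunits of the respiratory chain and of the mitochondrial ATP synthase were followed in the hearts of mice. They were chosen by gene symbol alone, as genes whose symbol in the platform annotation names a subunit of complexes I to IV or of ATP synthase, together with Cyc1 and Cycs. This gave 86 of 19505 measured genes, each with 1 probe set: 35 for complex I, 4 for complex II, 9 for complex III, 20 for complex IV, 17 for ATP synthase and 1 for cytochrome c. Ndufa4 and its paralogue Ndufa4l2 were placed with complex IV, where the Ndufa4 protein resides despite its symbol, and Cox7a2l, a factor that joins complexes III and IV into supercomplexes, was kept there too. The 13 genes of mitochondrial DNA were not analysed here.

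Expression was measured in mouse myocardium on 12 single-colour arrays, 4 in each of 3 groups, and each array was taken as 1 mouse. The labels give 6 months, without saying whether that is the age or the time since injection. DM_AngIV mice were made diabetic with streptozotocin, which destroys pancreatic beta cells, given on 5 days, and received angiotensin IV, a fragment of angiotensin II, by infusion at 2.88 mg/kg/day from the end of week 8 to the end of week 24. DM mice had the same streptozotocin treatment, and diabetic animals entered the study with fasting glucose of 16.7 mM or more, tested 2 weeks after injection. NC mice were injected with vehicle on 5 days. The labels used here name no strain and no genetic change for these groups, and nothing in them says whether mice of a group shared a cage or a litter. The question addressed was the effect of angiotensin IV on the diabetic heart. Values are log2 expression, relative within a gene, so the level of 1 gene is not set against that of another.

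Complexes I and II feed electrons from NADH and succinate into the ubiquinone pool, complex III passes them to cytochrome c, and complex IV hands them to oxygen. Complexes I, III and IV pump protons out of the mitochondrial matrix, and ATP synthase uses their return to make ATP. The heart depends on this pathway for nearly all of its ATP, and the diabetic heart is known for a shift of fuel use toward fatty acids. Apart from complex II, each of these complexes joins nuclear subunits with subunits made from mitochondrial DNA, and several nuclear subunits have separate isoforms in striated muscle and in other tissues.

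A gene was taken as above background where it exceeded 4.96, the 95th percentile of 246 reporter control probe sets. All 14 cardiomyocyte markers were above it on every array. The mean log2 level of 5 atrial muscle markers lay between 4.96 and 5.36 in DM_AngIV hearts, between 4.55 and 8.11 in DM hearts and between 5.11 and 8.58 in NC hearts. Myl7, the atrial regulatory light chain, was above background in 0 DM_AngIV hearts, in 3 DM hearts (replicates 1, 2 and 4) and in 2 NC hearts (replicates 1 and 3). The mean level of 10 macrophage and monocyte markers lay between 5.78 and 6.41 in DM_AngIV hearts, between 5.67 and 6.73 in DM hearts and between 5.62 and 5.81 in NC hearts. In bulk tissue, fewer cells of a type and less RNA per cell cannot be told apart.

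Most of the machinery was measured well: 83 of the 86 genes were above background on all 12 arrays, 2 on none (Cox7b2 and Cox8c) and Cox6b2 on 4. Within a group the subunit genes varied little, with a median within-group SD of 0.107 on the log2 scale, against 0.154 for the 7032 genes above background on all arrays and 0.192 for all genes.

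**Figure D1:**
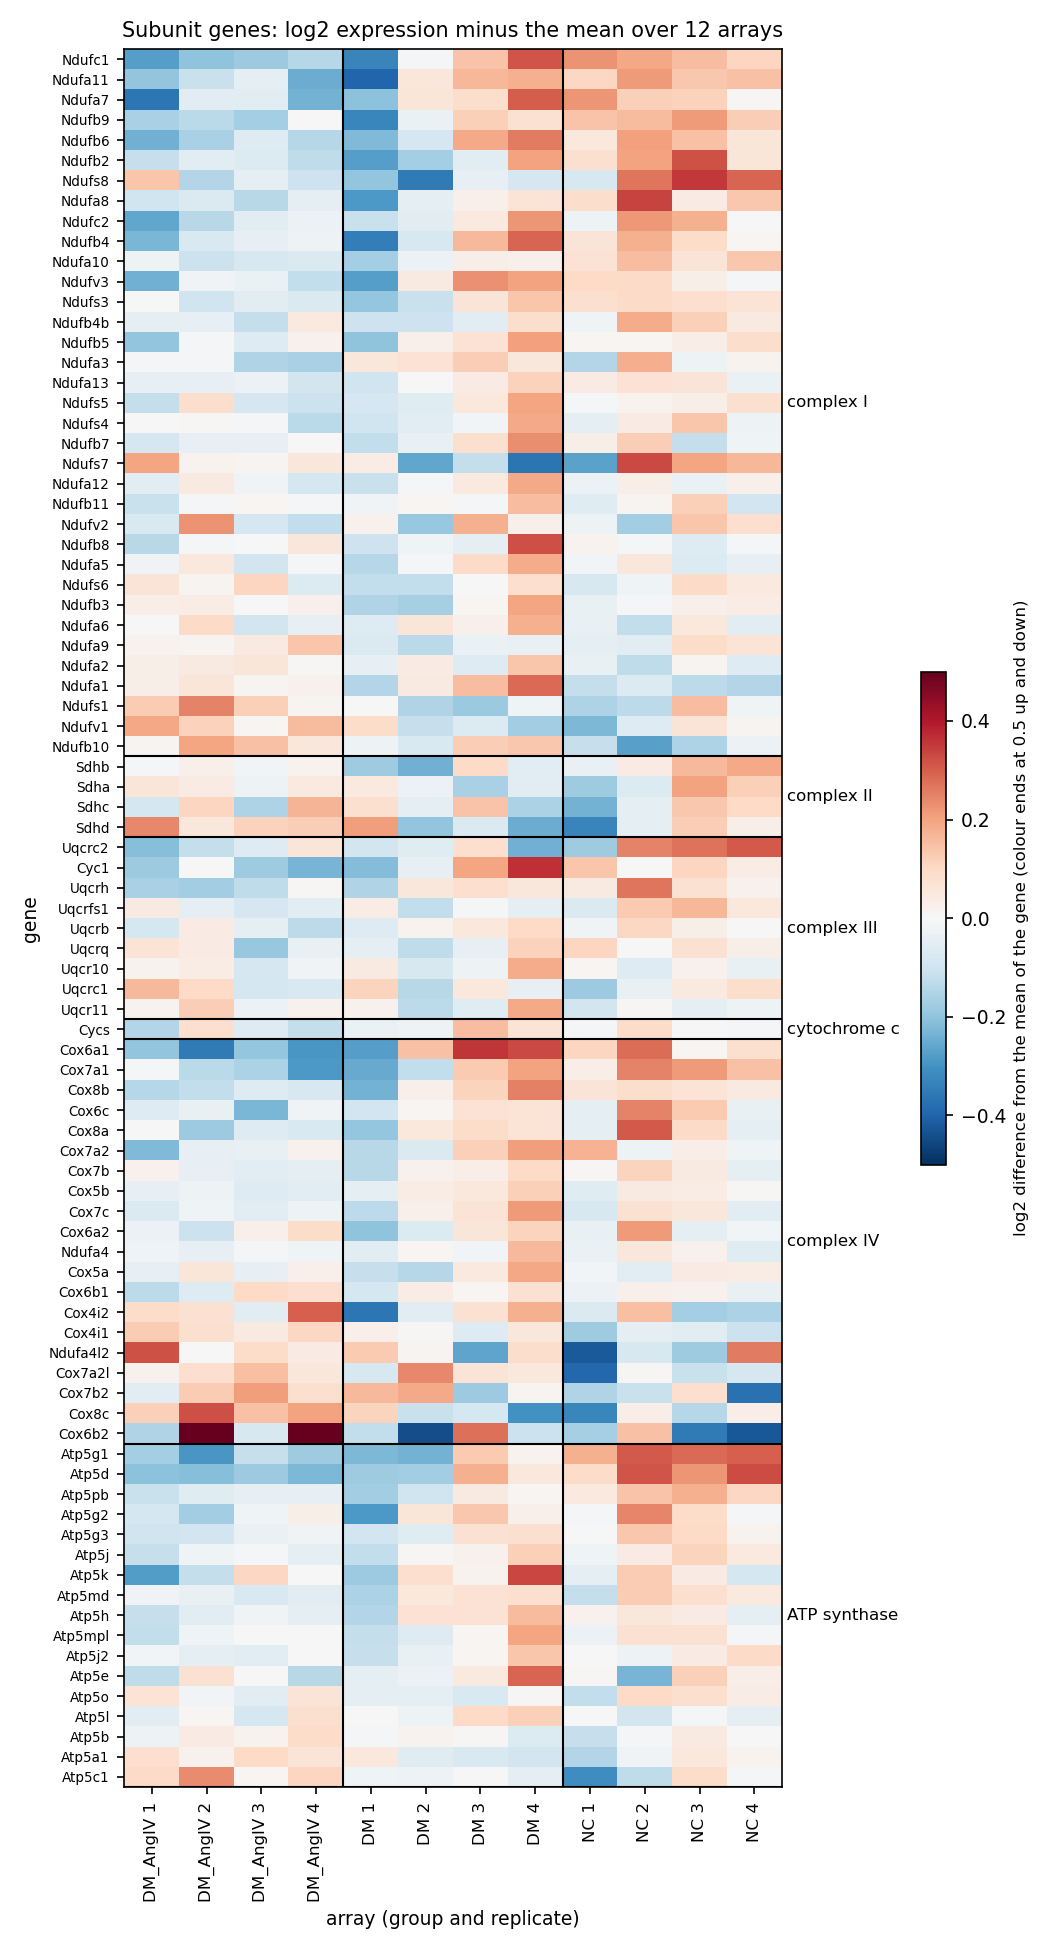
Log2 expression of each of the 86 genes minus its own mean over 12 arrays, in colour (blue lower, red higher), with genes down the page grouped by complex and arrays across in the order DM_AngIV, DM and NC. DM replicate 1 is mostly blue and DM replicate 4 mostly red, with 17 and 69 of the 86 genes above their own means.

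No subunit gene passed the test in any comparison. With limma and Benjamini-Hochberg adjustment over all genes, 0 of 86 had an adjusted p below 0.05 in DM_AngIV against DM, where 0% of all genes were called, 0 of 86 in DM_AngIV against NC, where 1.02% (198 genes) were called, and 0 of 86 in DM against NC, where 0.0154% (3 genes) were called. At an unadjusted p below 0.05 there were 2 subunit genes in DM_AngIV against DM, which is 2.33% beside 7.48% of all genes. These were Cox8c, higher though not above background, and Cox6a1, lower, where 3.98% of all genes were higher and 3.5% lower. There were 15 in DM_AngIV against NC (17.4% beside 14.6%), 3 of them higher and 12 lower, where 8.11% of all genes were higher and 6.53% lower. The 3 higher were Ndufb10, Cox8c, not above background on any array, and Cox6b2, above it on 4. There were 5 in DM against NC (5.81% beside 8.95%), 0 of them higher and 5 lower, where 4.69% of all genes were higher and 4.26% lower. Without regard to direction, the share among subunit genes was near or below that among all genes in each comparison. The 3 comparisons share arrays.

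The direction of the differences leaned to lower values. A positive log2 fold change was found for 29 of 86 genes in DM_AngIV against DM, for 28 in DM_AngIV against NC and for 35 in DM against NC, where 49.8%, 48.5% and 49.8% of all genes were positive. Of the 7032 genes above background on all arrays, 57.7%, 54.7% and 49.3% were positive. In complex IV 12 of 20 genes were positive in DM against NC. The 12 included Cox7a2l and all 5 isoforms typical of other tissues, of which 2 were above background on all arrays. The medians over the 86 genes were -0.04, -0.06 and -0.02 in the same order of comparisons, against -0.01 for all genes in DM_AngIV against NC. In DM_AngIV against DM the median was -0.0036 without DM replicate 4 and -0.09 without the hearts with atrial signal (1 DM heart left), and with the atrial signal as a covariate it was -0.08, with 20 genes positive. In DM against NC the lean depended on the hearts and the setting used. Without DM replicate 1, 50 of 86 genes were positive and the median was 0.01. The median was -0.0019 without DM replicate 2, -0.0088 with the atrial signal as a covariate and -0.06 without DM replicate 4.

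In DM_AngIV against NC the groups did not overlap for 26 genes, 30.2% of the 86, where 9.83% of all genes did not overlap. Of the 7032 genes above background on all arrays, 11.5% were higher and 6.87% lower in DM_AngIV hearts without overlap. The 4 DM_AngIV hearts all lay below the 4 NC hearts for 21 of the 86 genes, 24.4% of them, where 4.2% of all genes did so, and all above them for 5 genes, 5.81% beside 5.63%. The 5 were Ndufa1, Cox4i1, Cox7a2l, Ndufb10 and Cox8c, of which Cox8c was not above background on any array. The count of 21 depended on the scaling. It was 17 after median centring and 27 after quantile normalization, beside 3.70% and 4.88% of all genes. Without the hearts with atrial signal, which leaves 4 DM_AngIV and 2 NC hearts, 29 genes lay lower, beside 11.7% of all genes. The macrophage and monocyte markers were higher in DM_AngIV hearts than in NC hearts for all 10 measured genes by log2 fold change. Of the fibroblast markers 5 of 6 were lower, with a median log2 fold change of -0.35 and 1 called (Col3a1), and their mean level ran from 6.84 to 7.37 in DM_AngIV hearts and from 7.10 to 7.88 in NC hearts. Brown adipocyte markers were lower for 4 of 5 and adipocyte markers for 5 of 5. The mean level of the brown adipocyte markers ran from 3.92 to 3.97 in DM_AngIV hearts and from 4.06 to 4.41 in NC hearts. These ranges lay below background. Only 1 of 5 brown adipocyte markers and 0 of 5 adipocyte markers were above background on all arrays. These markers therefore cannot tell whether adipocyte content differed. The part of macrophages and monocytes, fibroblasts and adipocytes in the result was not tested. The 21 were 12 genes of complex I, 2 of complex III, 3 of complex IV and 4 of ATP synthase. In DM_AngIV against DM the groups did not overlap for 6 genes (6.98% beside 5.01% of all genes). Ndufa9, Atp5c1, Ndufs1 and Cox8c were higher in DM_AngIV hearts (4.65% beside 2.81%), and Atp5d and Ndufa3 were lower (2.33% beside 2.2%). In DM against NC they did not overlap for 4 genes (4.65% beside 4.54%), namely Atp5g1, Ndufb9, Atp5pb and Ndufa10, all lower in DM hearts, where 2.09% of all genes were lower and 2.45% higher without overlap. Many subunit genes varied together between hearts (a median r of 0.40 between pairs), so these genes are not separate pieces of evidence.

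The intervals describe 1 gene at a time and are not adjusted over genes or comparisons, so some may miss the true value. For the 83 genes above background on all arrays, every 95% interval of the log2 fold change lay within 1 of zero in each comparison, a change of 2-fold either way. It lay within 0.5, a 1.41-fold change, for 81 genes in DM_AngIV against DM, 71 in DM_AngIV against NC and 79 in DM against NC. The median standard error was 0.10.

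**Figure D2:**
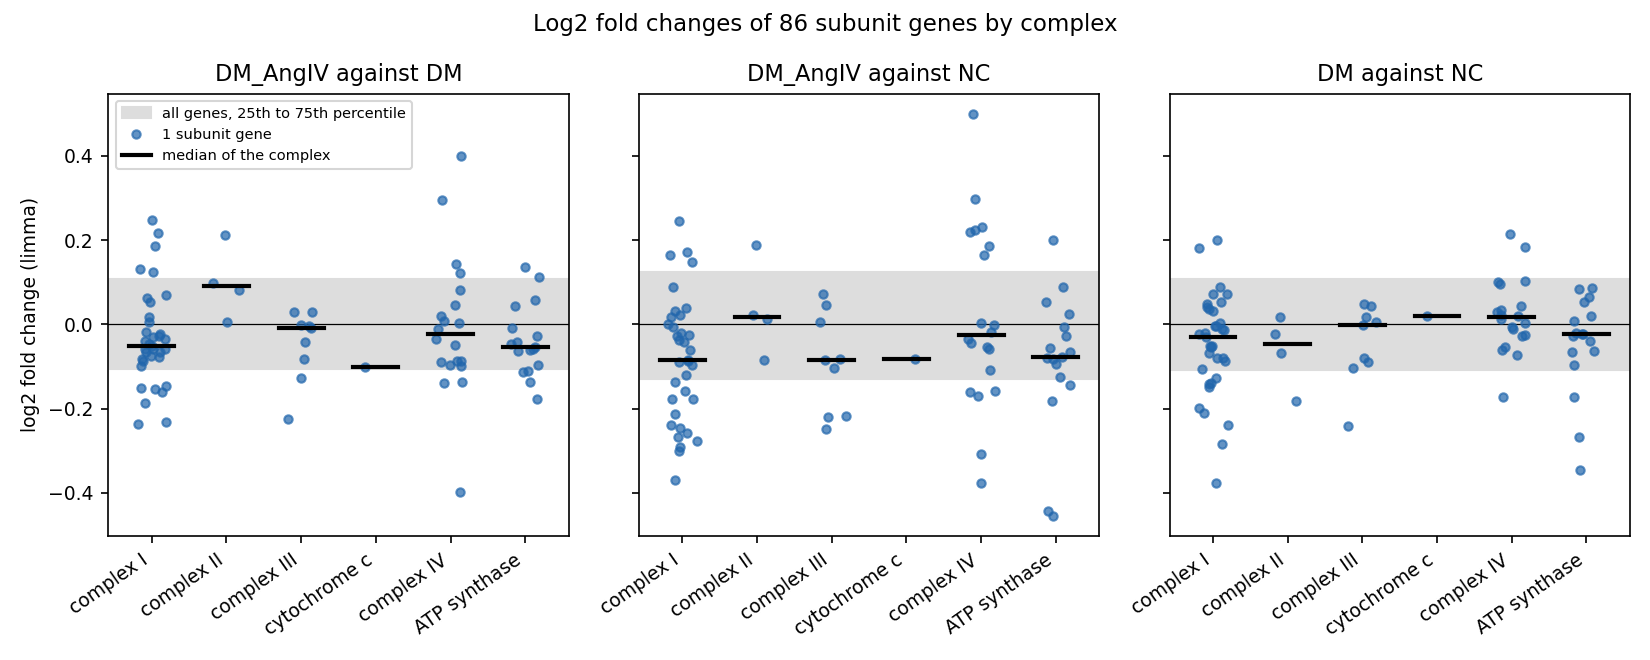
Log2 fold change of each subunit gene (points) by complex, with the median of the complex (bar) and the 25th to 75th percentile of all genes (grey band), in 3 panels for DM_AngIV against DM, DM_AngIV against NC and DM against NC. The lowest points of the middle panel are Atp5g1 and Atp5d of ATP synthase at -0.45 and -0.44, and complex II is the one complex with all 4 points positive in the left panel.

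In complex I the nuclear core subunits, which carry the flavin and the iron-sulfur clusters, and the supernumerary subunits around them had different medians. In DM_AngIV against DM, 4 of 6 core genes and 6 of 29 supernumerary genes had a positive log2 fold change, with medians of 0.16 and -0.06. In DM_AngIV against NC the medians were -0.03 and -0.09, and in DM against NC -0.08 and -0.02. A difference between the core and supernumerary genes was not tested.

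Ndufs8 and Ndufs7, which hold iron-sulfur clusters on the path to ubiquinone, had the lowest log2 fold changes of the core genes in DM against NC. Ndufs8 read 9.30, 9.01, 9.12 and 9.06 in DM_AngIV hearts, 8.96, 8.81, 9.12 and 9.07 in DM hearts and 9.08, 9.43, 9.52 and 9.45 in NC hearts. In all, 3 of the 4 NC hearts were above every other array and NC replicate 1 was within the DM range, so the groups overlapped. The log2 fold change in DM against NC was -0.38 ± 0.12 (SE), 1.30-fold lower, with a 95% interval of -0.63 to -0.12 and a limma adjusted p of 0.343. Ndufs7 read 9.59, 9.41, 9.41 and 9.45 in DM_AngIV hearts, 9.44, 9.14, 9.28 and 9.03 in DM hearts and 9.13, 9.73, 9.60 and 9.56 in NC hearts. Here too NC replicate 1 lay among the DM hearts, while the DM_AngIV hearts overlapped both groups. Its log2 fold change was -0.28 in DM against NC (limma adjusted p = 0.553) and 0.25 in DM_AngIV against DM (limma adjusted p = 0.700).

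Ndufs1 and Ndufv1 belong to the arm that takes up NADH, Ndufv1 binding NADH and the flavin. Ndufs1 read 9.62, 9.74, 9.61 and 9.51 in DM_AngIV hearts, 9.49, 9.35, 9.31 and 9.47 in DM hearts and 9.34, 9.37, 9.65 and 9.47 in NC hearts. The DM_AngIV hearts all lay above the DM hearts and overlapped the NC hearts, with a log2 fold change of 0.22 ± 0.10 (SE) in DM_AngIV against DM (limma adjusted p = 0.676). Ndufv1 read 10.82, 10.74, 10.64 and 10.78 in DM_AngIV hearts, 10.72, 10.51, 10.56 and 10.45 in DM hearts and 10.40, 10.56, 10.69 and 10.64 in NC hearts. DM replicate 1 reached into the DM_AngIV range, and the log2 fold change in DM_AngIV against DM was 0.19 (limma adjusted p = 0.701).

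Among the supernumerary subunits, which stabilise the complex and help to assemble it, Ndufc1 had the lowest log2 fold change in DM_AngIV against NC. Ndufc1 read 10.94, 11.02, 11.04 and 11.08 in DM_AngIV hearts, 10.89, 11.22, 11.36 and 11.54 in DM hearts and 11.45, 11.41, 11.37 and 11.33 in NC hearts. All DM_AngIV hearts were below all NC hearts, while the DM hearts spanned both ranges and more, from the lowest to the highest of the 12 arrays. Its log2 fold change was -0.37 ± 0.12 (SE) in DM_AngIV against NC, with an interval of -0.63 to -0.11 and a limma adjusted p of 0.167, and -0.23 in DM_AngIV against DM (limma adjusted p = 0.695).

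Ndufa7 read 7.24, 7.55, 7.55 and 7.37 in DM_AngIV hearts, 7.40, 7.67, 7.69 and 7.91 in DM hearts and 7.83, 7.73, 7.72 and 7.61 in NC hearts. Ndufb6 read 9.23, 9.30, 9.40 and 9.32 in DM_AngIV hearts, 9.24, 9.38, 9.65 and 9.72 in DM hearts and 9.52, 9.67, 9.61 and 9.52 in NC hearts. In both genes the DM_AngIV hearts were below the NC hearts and DM replicate 1 was inside the DM_AngIV range, as was DM replicate 2 for Ndufb6. Their log2 fold changes in DM_AngIV against DM were -0.24 and -0.19, with limma adjusted p of 0.679 and 0.735.

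A similar order was seen for Ndufa11, a membrane-arm subunit at the junction with complex III in supercomplexes, which is described because it is 1 of the 21 genes and its promoter carries a motif of the factor NRF1. Ndufa11 read 9.57, 9.66, 9.72 and 9.52 in DM_AngIV hearts, 9.37, 9.82, 9.93 and 9.95 in DM hearts and 9.87, 9.98, 9.90 and 9.91 in NC hearts. The highest DM_AngIV heart was below the lowest NC heart. DM replicate 1 was below every DM_AngIV heart, and the other 3 DM hearts were above them. Ndufb4 and Ndufb4b are near-identical copies, so their probe sets may share signal, which was not tested.

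Ndufb10 and Ndufa1 ran the other way. Ndufb10, an intermembrane-space subunit of the membrane arm, read 8.97, 9.15, 9.10 and 9.01 in DM_AngIV hearts, 8.93, 8.88, 9.08 and 9.09 in DM hearts and 8.84, 8.68, 8.80 and 8.93 in NC hearts. Every DM_AngIV heart was above every NC heart, and the DM hearts overlapped both. The log2 fold change of Ndufb10 was 0.25 ± 0.10 (SE) in DM_AngIV against NC (limma adjusted p = 0.264) and 0.18 in DM against NC (limma adjusted p = 0.633). Ndufa1, a small membrane subunit needed for assembly, read 9.07, 9.10, 9.06 and 9.06 in DM_AngIV hearts, 8.89, 9.09, 9.19 and 9.32 in DM hearts and 8.92, 8.97, 8.91 and 8.89 in NC hearts. All DM_AngIV hearts were above all NC hearts. DM replicate 1 lay at the low end of the NC range, and the log2 fold change in DM against NC was 0.20 (limma adjusted p = 0.608).

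Complex II, succinate dehydrogenase, is made from nuclear genes only and also serves in the citric acid cycle. Sdha, the flavoprotein, averaged 8.30 ± 0.04 in DM_AngIV hearts, 8.22 ± 0.09 in DM hearts and 8.29 ± 0.17 in NC hearts (SD, n = 4 each). Sdhb, the iron-sulfur subunit, averaged 10.69 ± 0.02 in DM_AngIV hearts, 10.60 ± 0.15 in DM hearts and 10.78 ± 0.11 in NC hearts (SD, n = 4 each). Sdhc, a membrane anchor, averaged 8.28 ± 0.16 in DM_AngIV hearts, 8.27 ± 0.13 in DM hearts and 8.26 ± 0.17 in NC hearts (SD, n = 4 each). The group ranges of these 3 genes overlapped in all comparisons.

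Sdhd, the other membrane anchor, read 9.36, 9.18, 9.24 and 9.25 in DM_AngIV hearts, 9.33, 8.93, 9.06 and 8.88 in DM hearts and 8.80, 9.08, 9.25 and 9.16 in NC hearts. It was among the 5 highest log2 fold changes of the subunit genes in DM_AngIV against DM, at 0.21 ± 0.12 (SE), with a limma adjusted p of 0.725. DM replicate 1 was within the DM_AngIV range, as was 1 NC heart, replicate 3. All 4 complex II genes had a positive log2 fold change in DM_AngIV against DM, with a median of 0.09, while the mean over the 4 genes ran from 9.07 to 9.18 in DM_AngIV hearts, from 8.96 to 9.13 in DM hearts and from 8.89 to 9.24 in NC hearts. The NC hearts alone covered the whole range of the other groups.

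Complex III passes electrons through cytochrome c1, the Rieske protein and cytochrome b. Cyc1, cytochrome c1, read 8.87, 9.05, 8.87 and 8.82 in DM_AngIV hearts, 8.83, 9.01, 9.25 and 9.41 in DM hearts and 9.19, 9.05, 9.16 and 9.09 in NC hearts. All DM_AngIV hearts were below all NC hearts, although DM_AngIV replicate 2 and NC replicate 2 both read 9.05, and the DM hearts ran across both groups. Its log2 fold change in DM_AngIV against DM was -0.23, with a limma adjusted p of 0.700. Uqcrc2, a core protein that holds the complex together on the matrix side, read 8.01, 8.10, 8.16 and 8.28 in DM_AngIV hearts, 8.13, 8.16, 8.31 and 7.98 in DM hearts and 8.05, 8.47, 8.50 and 8.53 in NC hearts. NC replicate 1 fell among the diabetic hearts, while the other 3 NC hearts lay above all diabetic hearts. The log2 fold change in DM against NC was -0.24 (limma adjusted p = 0.608). Cycs, the mobile carrier cytochrome c, averaged 11.18 ± 0.10 in DM_AngIV hearts, 11.28 ± 0.09 in DM hearts and 11.26 ± 0.05 in NC hearts (SD, n = 4 each), and its groups overlapped.

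In complex IV the catalytic core is made from mitochondrial DNA, and the nuclear subunits measured here surround it. Cox6a1, the widely expressed isoform of subunit 6a, had the largest difference of a reliably measured subunit gene in DM_AngIV against DM. Its promoter, from RefSeq (GRCm38.p6, minus strand, chr5:115348959-115349078, the 120 bases before the start), and that of Ndufa11 (plus strand, chr17:56717642-56717761) are shown as examples. Both genes are among the 21, and both windows hold the NRF1 motif, as do those of Atp5g3, Ndufa8 and Ndufb4, which are also among the 21. No match was found for any other gene of the 21. The motif was found for 17 of the 70 subunit genes with a promoter window. Atp5c1, with a positive log2 fold change in DM_AngIV against NC, is 1 of them. A link between the motif and the direction of a difference was not tested. Motifs are in capitals, with the GABP motif near the end of the Cox6a1 sequence.
Cox6a1: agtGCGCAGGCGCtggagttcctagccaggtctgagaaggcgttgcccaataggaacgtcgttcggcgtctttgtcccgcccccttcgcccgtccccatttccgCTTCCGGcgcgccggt
Ndufa11: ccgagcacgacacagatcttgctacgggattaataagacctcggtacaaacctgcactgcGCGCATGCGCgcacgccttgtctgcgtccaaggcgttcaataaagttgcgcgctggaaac

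Cox6a1 read 8.49, 8.33, 8.49 and 8.39 in DM_AngIV hearts, 8.41, 8.83, 9.04 and 9.02 in DM hearts and 8.79, 8.96, 8.70 and 8.77 in NC hearts. The DM_AngIV hearts lay below all NC hearts and below DM replicates 2, 3 and 4, while DM replicate 1 was inside the DM_AngIV range. The log2 fold change was -0.40 ± 0.13 (SE) in DM_AngIV against DM, 1.32-fold lower, with an interval of -0.68 to -0.12 and a limma adjusted p of 0.600, and -0.54 without DM replicate 1. In DM_AngIV against NC it was -0.38 ± 0.13 (SE), with a limma adjusted p of 0.191.

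The striated muscle isoforms were set beside their widely expressed partners. Cox6a2, the muscle isoform of subunit 6a, read 11.84, 11.76, 11.89 and 11.96 in DM_AngIV hearts, 11.66, 11.80, 11.92 and 11.97 in DM hearts and 11.83, 12.08, 11.82 and 11.85 in NC hearts. The groups overlapped, with a log2 fold change of -0.03 in DM_AngIV against NC. The interval of that difference was -0.26 to 0.19, whereas that of Cox6a1 was -0.66 to -0.10, so the intervals overlapped, and the difference between the isoforms was not tested.

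Cox7a1, the muscle isoform of subunit 7a, read 11.02, 10.89, 10.87 and 10.74 in DM_AngIV hearts, 10.78, 10.90, 11.16 and 11.23 in DM hearts and 11.06, 11.28, 11.24 and 11.17 in NC hearts. All DM_AngIV hearts were below all NC hearts, with a log2 fold change of -0.31 ± 0.12 (SE) and a limma adjusted p of 0.233. Its partner Cox7a2 averaged 10.19 ± 0.10 in DM_AngIV hearts, 10.29 ± 0.16 in DM hearts and 10.30 ± 0.09 in NC hearts (SD, n = 4 each), with a log2 fold change of -0.11 in DM_AngIV against NC and overlapping groups. Cox8b, the muscle isoform of subunit 8, read 10.64, 10.66, 10.72 and 10.70 in DM_AngIV hearts, 10.55, 10.80, 10.89 and 11.03 in DM hearts and 10.85, 10.87, 10.85 and 10.83 in NC hearts. DM_AngIV hearts were below NC hearts without overlap, with a log2 fold change of -0.17 (limma adjusted p = 0.501), while its partner Cox8a had -0.16 (limma adjusted p = 0.546) and overlapping groups. All 6 isoforms had a negative log2 fold change in DM_AngIV against NC, and 0 of 6 passed the test, but Cox6a2 had 0.027 without NC replicate 2, its highest NC array.

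**Figure D3:**
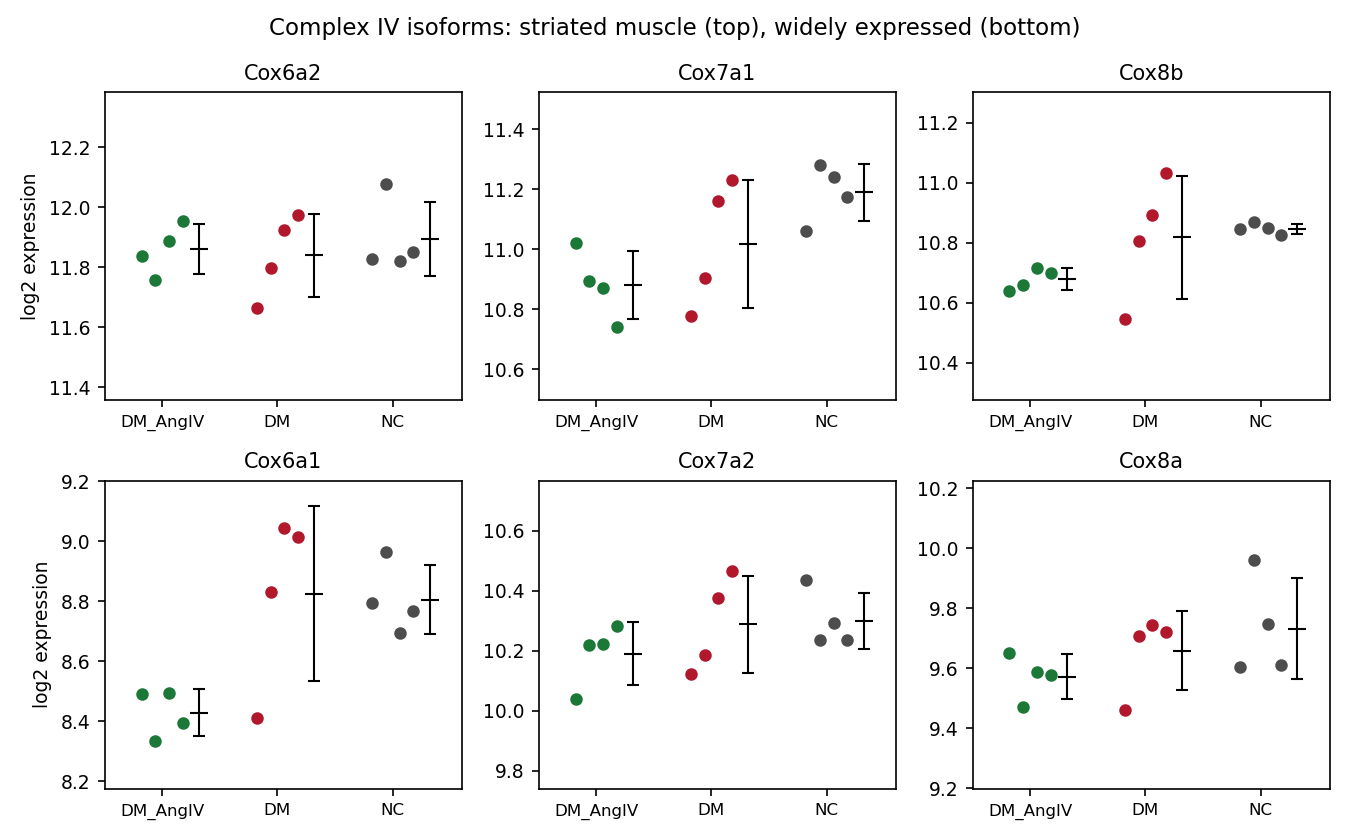
Log2 expression of the complex IV isoforms on each array (points) with group mean and SD (bar), striated muscle isoforms in the top row and widely expressed isoforms in the bottom row, DM_AngIV left of DM and DM left of NC. Cox7a1, Cox8b and Cox6a1 show 4 DM_AngIV hearts below 4 NC hearts, whereas Cox6a2, Cox7a2 and Cox8a overlap.

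Cox4i1, the widely expressed isoform of subunit 4, and Cox7a2l were higher in DM_AngIV hearts than in NC hearts without overlap. Cox4i1 read 11.15, 11.10, 11.06 and 11.12 in DM_AngIV hearts, 11.04, 11.03, 10.96 and 11.07 in DM hearts and 10.84, 10.97, 10.96 and 10.91 in NC hearts. Its log2 fold change was 0.19 ± 0.09 (SE) in DM_AngIV against NC (limma adjusted p = 0.348) and 0.10 in DM against NC (limma adjusted p = 0.786). Cox7a2l read 9.14, 9.20, 9.27 and 9.18 in DM_AngIV hearts, 9.04, 9.36, 9.19 and 9.17 in DM hearts and 8.73, 9.13, 9.01 and 9.03 in NC hearts. The DM hearts overlapped NC hearts through DM replicate 1, and the log2 fold change was 0.22 in DM_AngIV against NC and 0.22 in DM against NC, with limma adjusted p of 0.364 and 0.607.

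Isoforms typical of other tissues were dim. Cox6b2, the testis isoform of subunit 6b, read 4.76, 5.80, 4.83 and 5.46 in DM_AngIV hearts, 4.79, 4.47, 5.19 and 4.81 in DM hearts and 4.75, 5.06, 4.56 and 4.49 in NC hearts. It exceeded background on DM_AngIV replicates 2 and 4, DM replicate 3 and NC replicate 2, and had log2 fold changes of 0.40 in DM_AngIV against DM, 0.50 in DM_AngIV against NC and 0.10 in DM against NC (limma adjusted p = 0.700, 0.296 and 0.946). Cox7b2 and Cox8c, likewise testis isoforms, were not above background on any array, so no fold is given for them. Ndufa4l2, which is induced by hypoxia, averaged 6.26 ± 0.14 in DM_AngIV hearts, 6.13 ± 0.18 in DM hearts and 6.04 ± 0.28 in NC hearts (SD, n = 4 each), with a log2 fold change of 0.22 in DM_AngIV against NC (limma adjusted p = 0.516). Cox4i2, the lung isoform of subunit 4, averaged 5.68 ± 0.15 in DM_AngIV hearts, 5.54 ± 0.23 in DM hearts and 5.52 ± 0.15 in NC hearts (SD, n = 4 each), with a log2 fold change of 0.16 (limma adjusted p = 0.606). The groups of both genes overlapped.

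ATP synthase held the 2 subunit genes closest to the threshold. Atp5g1 encodes the c subunit, which forms the rotating ring of the membrane part and is also made from Atp5g2 and Atp5g3 as an identical mature protein. Atp5g1 read 10.85, 10.72, 10.90 and 10.84 in DM_AngIV hearts, 10.79, 10.78, 11.15 and 11.03 in DM hearts and 11.19, 11.32, 11.30 and 11.31 in NC hearts. All DM_AngIV and all DM hearts were below all NC hearts, and the 2 diabetic groups overlapped each other. The log2 fold change was -0.45 ± 0.11 (SE) in DM_AngIV against NC, 1.37-fold lower, with an interval of -0.68 to -0.23 and a limma adjusted p of 0.0550. In DM against NC it was -0.34 ± 0.11 (SE), with an interval of -0.57 to -0.12 and a limma adjusted p of 0.324.

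Atp5g2 read 10.26, 10.18, 10.33 and 10.38 in DM_AngIV hearts, 10.06, 10.41, 10.48 and 10.37 in DM hearts and 10.34, 10.59, 10.44 and 10.34 in NC hearts. Its groups overlapped, with a log2 fold change of -0.14 in DM_AngIV against NC (limma adjusted p = 0.608). Atp5g3 read 10.85, 10.86, 10.92 and 10.93 in DM_AngIV hearts, 10.86, 10.89, 11.03 and 11.03 in DM hearts and 10.95, 11.09, 11.05 and 10.97 in NC hearts. DM_AngIV hearts lay below NC hearts by a small margin, with a log2 fold change of -0.13 (limma adjusted p = 0.577). The 3 genes for the same mature protein thus had log2 fold changes of one sign and of different size in DM_AngIV against NC, and a difference between them was not tested.

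Atp5d, the delta subunit of the central stalk, read 9.59, 9.58, 9.61 and 9.57 in DM_AngIV hearts, 9.62, 9.62, 9.97 and 9.85 in DM hearts and 9.88, 10.11, 10.01 and 10.12 in NC hearts. The DM_AngIV hearts, with an SD of 0.02, lay below all other arrays. DM replicates 1 and 2 were next to the DM_AngIV hearts and DM replicates 3 and 4 were next to NC replicate 1. The log2 fold change was -0.44 ± 0.11 (SE) in DM_AngIV against NC, 1.36-fold lower, with an interval of -0.67 to -0.22 and a limma adjusted p of 0.0621. In DM against NC it was -0.27 (limma adjusted p = 0.472).

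Of the other 4 F1 genes, 3 had positive log2 fold changes in DM_AngIV against NC, with Atp5e, the epsilon subunit, at -0.03. Atp5c1, the gamma subunit and the other part of the rotating stalk, read 11.34, 11.48, 11.26 and 11.35 in DM_AngIV hearts, 11.22, 11.22, 11.24 and 11.20 in DM hearts and 10.93, 11.12, 11.34 and 11.24 in NC hearts. All DM_AngIV hearts were above all DM hearts and overlapped the NC hearts, with a log2 fold change of 0.20 in DM_AngIV against NC (limma adjusted p = 0.400). Atp5a1 and Atp5b, the alpha and beta subunits of the catalytic head, complete the F1 genes with a positive value in DM_AngIV against NC, so that 3 of 5 F1 genes were positive there (median 0.05), beside 1 of 12 genes of the membrane part and peripheral stalk (median -0.08). A difference between these sets was not tested.

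**Figure D4:**
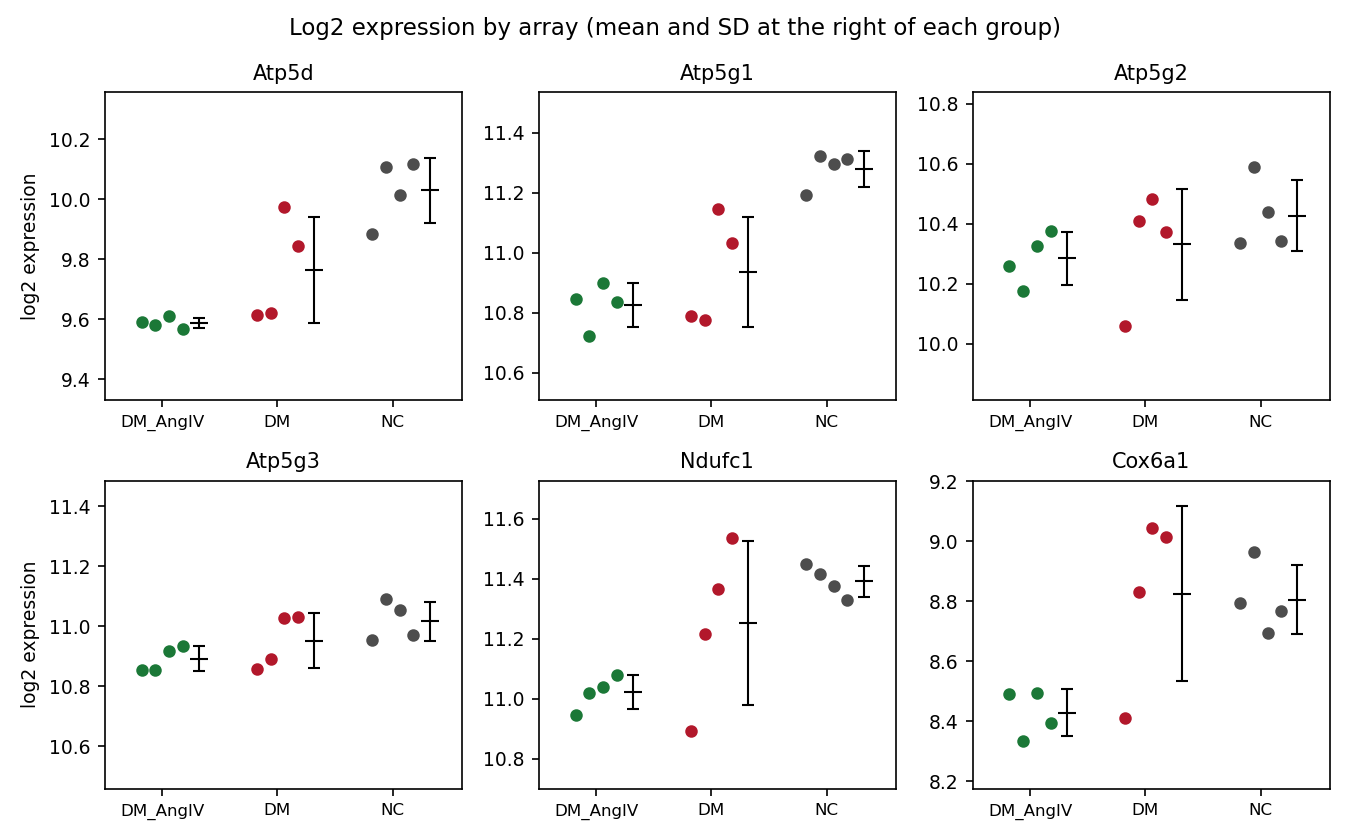
Log2 expression of Atp5d, the 3 c-subunit genes Atp5g1, Atp5g2 and Atp5g3, Ndufc1 and Cox6a1 on each array (points), with group mean and SD (bar), DM_AngIV left of DM and DM left of NC; all panels cover the same height in log2 units. For Atp5d and Atp5g1 the 4 DM_AngIV hearts lie below the 4 NC hearts and the DM hearts split, with replicates 1 and 2 low.

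Both ATP synthase genes crossed the threshold under some settings. In DM_AngIV against NC, the limma adjusted p of Atp5g1 ran from 0.00227 to 0.160 over 20 alternatives, of which 5 put it below 0.05, and that of Atp5d ran from 0.00516 to 0.140, with 4 below. The alternatives that only narrowed the list of subunit genes reused the main fit, so they could not change these values. Leaving out the hearts with atrial signal gave -0.49 for Atp5g1 and -0.53 for Atp5d, with 2 NC hearts left and limma adjusted p of 0.160 and 0.125. With the atrial signal as a covariate the values were -0.56 and -0.58.

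Promoter windows of 300 bases (250 before to 50 after the start, RefSeq, GRCm38.p6) were searched on both strands for 4 motifs of factors known to bind promoters of respiratory genes. Windows were found for 70 of the 86 genes, 75 windows in all. The NRF1 motif, GCGCA and GCGC with any base between them, was in 24.0% of them, beside 4.60% of 32851 windows in the whole table, and YY1's AAGATGGCG in 9.33% beside 1.40%. GABP's CCGGAAG was in 22.7% beside 8.86%, and the ERR motif AAGGTCA in 10.7% beside 4.72%. A match describes letters only, and the windows of Atp5g1 and Atp5d hold none of these 4.

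Most, but not all, subunit genes varied together between hearts. Over pairs of the 83 genes above background, deviations from group means correlated with a median r of 0.40 across 12 arrays (complex I 0.49, complex II 0.56, complex III 0.21, complex IV 0.54, ATP synthase 0.40), beside 0.03 for every 20th gene above background. A positive r was found for 79.0% of the pairs. Complex II did not follow the mean of all 86 genes in the outer DM hearts, with mean deviations of 0.04 in DM replicate 1 and -0.13 in DM replicate 4, and the core genes of complex I had -0.04 and -0.08 there. These genes share arrays and a high level of signal, so r is a description only.

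**Figure D5:**
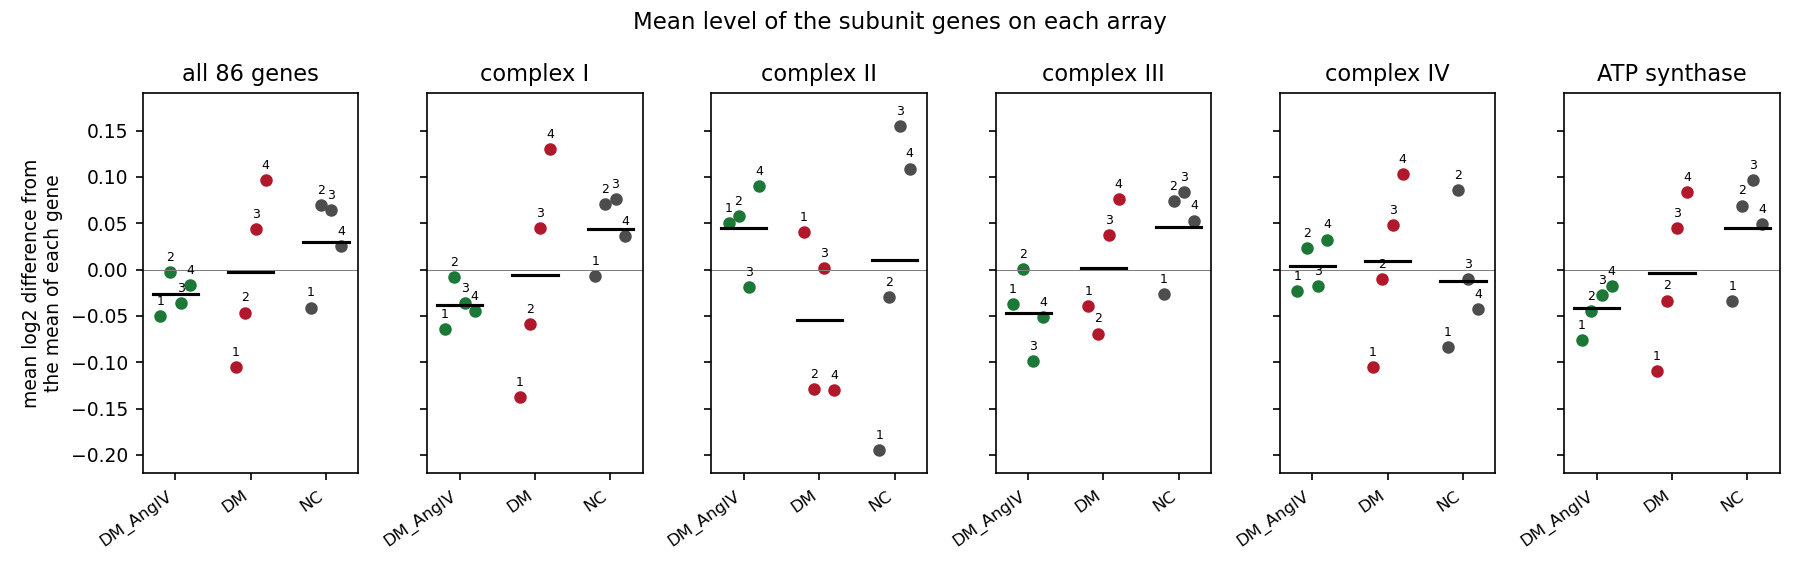
Mean log2 difference of the subunit genes from their own means on each array (points, with replicate number), for all 86 genes and by complex, with the group mean as a bar, DM_AngIV left of DM and DM left of NC. The DM hearts spread from -0.10 (replicate 1) to 0.10 (replicate 4) for all 86 genes, while the DM_AngIV hearts lie between -0.05 and -0.003.

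The mean level of the 86 genes was 9.72 ± 0.02 in DM_AngIV hearts, 9.75 ± 0.09 in DM hearts and 9.78 ± 0.05 in NC hearts (SD, n = 4 each), so the group means lay closer together than the hearts of the DM group. DM replicates 1, 2, 3 and 4 deviated by -0.10, -0.05, 0.04 and 0.10. The macrophage and monocyte markers moved the other way between the outer DM hearts, with mean deviations of 0.70, 0.07, 0.12 and -0.36 in replicates 1 to 4, and all 10 measured markers lay above their own means in replicate 1 and 0 in replicate 4. The cardiomyocyte markers stayed between -0.09 and -0.01 in the DM hearts. The part of cell composition in the spread of the subunit genes was not tested.

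Genes that build or control the chain were also counted. Of 54 assembly factors 50 were measured and 0 were called in any comparison. They were negative for 33 of 50 in DM_AngIV against DM, for 35 in DM_AngIV against NC and for 39 in DM against NC, with medians of -0.03, -0.11 and -0.09. Ndufaf4, which helps to assemble complex I, read 8.03, 8.19, 8.21 and 8.22 in DM_AngIV hearts, 8.21, 8.39, 8.69 and 8.72 in DM hearts and 8.74, 8.83, 8.45 and 8.69 in NC hearts. All DM_AngIV hearts were below all NC hearts, with a log2 fold change of -0.52 ± 0.13 (SE) in DM_AngIV against NC (limma adjusted p = 0.0684) and -0.34 in DM_AngIV against DM (limma adjusted p = 0.620). Against NC it passed in 3 of 20 alternatives in DM_AngIV hearts, with a lowest limma adjusted p of 0.0111.

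Dmac1, an assembly factor of the complex I membrane arm, had a log2 fold change of -0.37 in DM_AngIV against NC (limma adjusted p = 0.128, passing in 1 of 20 alternatives), and Cox17, a copper chaperone for complex IV, had -0.31 in DM_AngIV against DM (limma adjusted p = 0.629). In DM against NC, Bcs1l, which inserts the Rieske protein into complex III, had -0.45 and the complex I assembly factor Ndufaf3 had -0.38 (limma adjusted p = 0.351 and 0.373). These 5 are the assembly factors with the smallest unadjusted p in each comparison.

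Of 17 regulators of mitochondrial gene expression 16 were measured, and 0 were called. Ppargc1a, the coactivator PGC-1alpha that raises expression of respiratory genes, read 9.37, 9.34, 9.40 and 9.75 in DM_AngIV hearts, 9.57, 9.41, 9.39 and 9.18 in DM hearts and 8.83, 9.12, 8.70 and 9.20 in NC hearts. The DM_AngIV hearts were all above the NC hearts, and DM replicate 4 reached the NC range. Its log2 fold change was 0.50 ± 0.14 (SE) in DM_AngIV against NC (limma adjusted p = 0.0922) and 0.42 ± 0.14 (SE) in DM against NC (limma adjusted p = 0.351). The DM_AngIV against NC difference passed in 2 of 20 alternatives, with a lowest limma adjusted p of 0.0211.

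Nrip1, a corepressor of oxidative genes, had a log2 fold change of 0.42 in DM_AngIV against NC (limma adjusted p = 0.185). Perm1, a muscle regulator of the same programme, had 0.26 in DM_AngIV against DM (limma adjusted p = 0.643), where Pprc1 had the smallest unadjusted p of the list but was not above background. Tfb1m, a methyltransferase of mitochondrial ribosomal RNA, had -0.41 in DM against NC (limma adjusted p = 0.462).

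Of 14 citric acid cycle genes 13 were measured and 0 were called, with medians of 0.03 in DM_AngIV against DM, 0.01 in DM_AngIV against NC and -0.03 in DM against NC. Idh3g, a subunit of the NAD-linked isocitrate dehydrogenase, had a log2 fold change of -0.25 and Suclg1, of succinyl-CoA ligase, had 0.26 in DM_AngIV against NC (limma adjusted p = 0.258 and 0.278). Idh2 and Fh1 had 0.18 and -0.16 in DM_AngIV against DM, and Idh3a and Idh3g had -0.18 and -0.16 in DM against NC, with limma adjusted p from 0.653 to 0.756.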

How the data were processed

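The authors deposited log2 expression in a single table. Per the submitters' processing notes it was made with RMA (robust multi-array average), which corrects background, scales the arrays to a common distribution and combines probes. The software version is not given in the sources used here. The table held 29129 probe sets, 19572 of them with 1 gene symbol and 0 with several in the platform annotation. The probe set with the highest mean was kept for each symbol, which left 19505 genes. Precision is limited by the number of arrays. The array medians over genes lay between 4.57 and 4.61.

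A linear model with 3 group means was fitted to all genes and all 12 arrays by limma 3.58.1 (R 4.3.3), using moderated two-sided tests and Benjamini-Hochberg adjustment over all genes, and a gene was called below 0.05. The fitting code was tested on simulated data. Each array was taken as 1 mouse, which the sample titles do not state. The tests set each group difference against the spread between arrays within groups. The members and lists were chosen with earlier results of these data known. Named were the 5 highest and the 5 lowest log2 fold changes per comparison among members above background in at least 1 group, the isoforms, the c-subunit genes, the complex II genes, Cyc1, Cycs, members not above background, and per further list the 2 genes with the smallest unadjusted p per comparison. Others, such as Ndufa11, were named after their values were seen.

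Replicate numbers are shared between groups in the labels, which do not say whether they pair the mice. The correlation of deviations from the group means between same-numbered arrays lay between -0.10 and 0.17. A low correlation over all genes cannot exclude a pairing, so a replicate block was run as an alternative. Alternatives covered the scaling, filters, array weights, variance prior, replicate block, atrial muscle signal and each array in turn. Those that only narrowed the list of subunit genes reused the main fit, so the result of a single gene could not differ there. Averaging the probe sets of a gene left the subunit values unchanged, as each of the 86 had 1 probe set. Counts without overlap and of positive values under other settings were added after seeing the data. Promoters were searched, and figures drawn with matplotlib 3.10.9, in Python 3.11.15.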

Additional observations from a re-analysis of the deposited data

Results flagged for a closer look

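In 11 of 159 groups of 4 arrays, 1 array stood far from the other 3, with a gap that chance gives in about 1 in 20 groups. Among the subunit genes, Cox6a2 was 12.08 on NC replicate 2 (the other NC arrays 11.82 to 11.85), Cycs was 11.33 on NC replicate 2 (others 11.23 to 11.24), Uqcrc2 was 8.05 on NC replicate 1 (others 8.47 to 8.53) and Cox8a was 9.46 on DM replicate 1 (others 9.71 to 9.75).

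Among the assembly factors, Ndufaf4 was 8.03 on DM_AngIV replicate 1 (others 8.19 to 8.22), Ndufaf3 was 5.88 on DM replicate 1 (others 6.24 to 6.31) and Dmac1 was 8.72 on NC replicate 2 (others 8.44 to 8.48). Of the citric acid cycle genes, Idh2 was 11.34 on DM replicate 1 (others 11.10 to 11.13). Of the regulators, Ppargc1a was 9.75 on DM_AngIV replicate 4 (others 9.34 to 9.40), and Pprc1, which was not above background, was 3.49 on DM_AngIV replicate 4 (others 3.15 to 3.20) and 3.36 on DM replicate 1 (others 3.93 to 3.96).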

How the results depend on the processing

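The count of called subunit genes stayed at 0 in DM_AngIV against DM and in DM against NC under every alternative run. In DM_AngIV against NC it was 0 in the main setting and whichever array was left out, but 1 with only the 8 arrays of the groups compared (Atp5g1), 2 at an adjusted p below 0.1, 2 with the atrial covariate, 2 with only genes above the median level, 2 after quantile normalization (Atp5d and Atp5g1 each time) and 3 with a trended and robust prior (Ndufc1 added). The cause was not tested, other than that the filter tests fewer genes. Median log2 fold changes moved by less than the spread between hearts, and with 1 array left out ran from -0.08 to -0.00 in DM_AngIV against DM, from -0.07 to -0.05 in DM_AngIV against NC and from -0.06 to 0.01 in DM against NC. With the replicate block, 0 subunit genes were called in each comparison, and 115 genes in all in place of 198 in DM_AngIV against NC. Across all genes the DM_AngIV against NC count ran from 81 to 167 with 1 array left out and was 50 with the atrial-signal arrays omitted. With only the 8 arrays of the groups compared it was 245, with the atrial covariate 158 and after quantile normalization 214. It was 514 with the trended and robust prior, 509 at an adjusted p below 0.1 and 504 for genes above the median level. In DM against NC these gave 28, 17 and 20 in place of 3, and leaving out 1 array gave 2 to 30, the highest without DM replicate 4. In DM_AngIV against DM leaving out 1 array gave 0 to 5 in place of 0, the highest without DM_AngIV replicate 2.

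Counts of genes whose groups do not overlap grow by construction where arrays are left out. Without the arrays with atrial signal (4 DM_AngIV, 1 DM and 2 NC arrays left) they were 15 higher and 45 lower in DM_AngIV against DM (22.7% and 23.0% of all genes), 11 higher in DM_AngIV against NC (11.4%), with 29 lower (11.7%), and 23 higher and 26 lower in DM against NC (30.2% and 31.4%). Without DM replicate 1 they were 9 higher and 19 lower in DM_AngIV against DM (6.13% and 5.51%). In DM against NC they were then 3 higher and 4 lower (4.08% and 3.27%). In DM_AngIV against DM, quantile normalization gave 2 higher and 3 lower (2.37% and 2.14% of all genes), in place of 4 and 2. Median centring gave 4 higher and 1 lower there (3.34% and 1.87%). In DM_AngIV against NC, quantile normalization gave 4 higher and 27 lower (5.18% and 4.88%), in place of 5 and 21. Median centring gave 5 higher and 17 lower there (6.04% and 3.70%). The sign turned for Cox6a2 in DM_AngIV against NC, to 0.027 without NC replicate 2 (-0.066 to 0.027 with 1 array left out), and for Cox6b2 in DM against NC, to -0.024 without DM replicate 3 (-0.024 to 0.216). The number of arrays limits the precision throughout.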
